A study of Mus musculus with 28 samples.

Results

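Costimulatory ligands and receptors were followed in whole AB1-HA tumors as a group of 10 genes, chosen by name for the role of their proteins in the second signal of T cell activation: Cd28, Cd27 and Cd40lg, Cd80, Cd86, Icosl and Cd40, and Tnfsf4, Tnfsf9 and Cd70. All 10 had a row in both deposited count tables, of 55341 genes each, and all 10 passed the filter on low counts (17916 genes tested among the 5-FU groups and 17819 among the cisplatin groups). AB1-HA is a mouse mesothelioma line, a single line, that carries the influenza hemagglutinin antigen, and it was grown under the skin of the flank of female BALB/c.AusBP mice aged 8 to 10 weeks. Mice received PBS (4 tumors), immune checkpoint blockade (ICB; 5 tumors), 5-FU (5 tumors), 5-FU+ICB (5 tumors), cisplatin (4 tumors) or cisplatin+ICB (5 tumors). ICB was anti-CTLA-4 with anti-PD-L1 at 100 µg each, with anti-PD-L1 given 3 times in all. Cisplatin (6 mg/kg) was injected into the peritoneum and 5-FU (75 mg/kg) into a vein. Each of the 28 tumors came from a different mouse and was taken 7 days after treatment began, so its RNA held that of the cancer cells and of every host cell in the tumor.

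A T cell that meets its antigen needs a second signal from the cell that presents it. CD28 on the T cell receives that signal from CD80 and CD86 on dendritic cells, macrophages and B cells, and the inhibitory receptor CTLA-4 competes for the same ligands. ICOS and its ligand, encoded by Icosl, form a related pair, whereas CD27 with CD70, OX40 with OX40L (Tnfsf4), 4-1BB with 4-1BBL (Tnfsf9) and CD40 with CD40L (Cd40lg) are receptors of the TNF receptor superfamily and their ligands, which signal through TRAF adaptors to NF-kB.

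Promoter sequence was found in the RefSeq table (build GRCm38.p6) for 3 of the 10 genes. These 3 are shown for that reason alone. They happen to fall on both sides of the results below: Cd27 and Icosl rose after ICB, and Cd80 did not. Each line gives bases upstream of the RefSeq start that lie in no annotated exon, 5′ to 3′ on the gene's strand, and capitals mark a match to the NF-kB-like letters GGGNNNNNCC or the AP-1 letters TGANTCA on either strand.
Cd27: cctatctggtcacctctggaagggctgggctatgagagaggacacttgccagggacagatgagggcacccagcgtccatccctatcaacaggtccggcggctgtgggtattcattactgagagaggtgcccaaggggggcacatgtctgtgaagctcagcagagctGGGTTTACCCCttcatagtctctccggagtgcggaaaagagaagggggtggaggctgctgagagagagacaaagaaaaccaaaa
Cd80: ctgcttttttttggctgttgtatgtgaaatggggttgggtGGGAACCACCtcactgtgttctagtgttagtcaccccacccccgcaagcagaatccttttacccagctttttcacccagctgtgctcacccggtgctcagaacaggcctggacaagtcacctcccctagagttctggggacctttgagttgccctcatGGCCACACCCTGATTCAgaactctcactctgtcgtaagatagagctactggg
Icosl: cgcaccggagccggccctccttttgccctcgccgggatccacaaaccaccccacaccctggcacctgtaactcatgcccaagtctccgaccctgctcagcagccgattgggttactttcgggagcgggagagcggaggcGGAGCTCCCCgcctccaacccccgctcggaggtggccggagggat
The Cd27 stretch is chr6:125237028-125237277 on the minus strand and holds a pair of overlapping NF-kB-like matches, at -84 to -75 and -83 to -74 from the start. The Cd80 stretch is chr16:38458683-38458932 on the plus strand, inside the GENCODE gene but in no annotated exon, with NF-kB-like matches at -210 to -201 and -52 to -43 and an AP-1 match at -42 to -36. The Icosl stretch is chr10:78069118-78069301 on the plus strand, with an NF-kB-like match at -111 to -102. It holds 184 bases and stops where an annotated exon begins, and a second match, at -71 to -62, runs past that end and is not in capitals. The letters GGGNNNNNCC were present in 50.8% of 32851 promoter windows of 300 bases and TGANTCA in 7.81%, so a match to the former is common. No match was found in the windows of the 3 genes to the letters TTCNNNGAA (GAS, in 8.30% of windows) or GAAANNGAAA (IRF-like, in 3.44%), and a match is a description of letters, not of a bound site.

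Libraries held 23541733 to 33950805 estimated counts (median 28797551.5), so that 3 counts in a library, taken here as the limit that a count of 0 allows, corresponded to 0.0821 to 0.159 CPM (counts of a gene scaled to the size of its library). These limits cover counting error only. Several tumors stood apart from their group in cell type markers. Tumor 1 of the cisplatin+ICB group had the lowest T cell (Cd3d, Cd3e and Cd3g, summed 12.8 CPM) and dendritic cell marker sums of its group, the highest mesothelial and tumor cell marker sum of all tumors (664 CPM, against 132 as the lowest of its group), and a TMM factor of 0.685. Tumor 2 of the 5-FU+ICB group had a T cell marker sum of 18.9 CPM beside a group median of 166 CPM. Tumor 5 of that group had a B cell marker sum of 769 CPM, a lymph node marker sum of 1694 CPM and a skeletal muscle marker sum of 4354 CPM. Its tumor 1 had 29.9 CPM of B cell and 821 CPM of lymph node markers, and tumor 3 of the 5-FU group had 103 and 809 CPM. In the lymph node list Cxcl13 had a median of 113 CPM over all tumors and the other genes at most 1.14 CPM, so a high sum alone does not show lymph node tissue. Tumor 3 of the ICB group had a skeletal muscle marker sum of 3155 CPM beside a group median of 42.6 CPM, and the highest T cell (250.5 CPM) and B cell (24.4 CPM) marker sums of its group. Without it the Cd28 and Cd27 log2 fold changes from PBS, given below, were 3.42 and 2.31, and the same 7 genes were called. The part of these tissues in its values was not tested. The mesothelial marker Upk3b was at 0 in every ICB, 5-FU and 5-FU+ICB tumor. It had at most 2 counts (0.067 CPM) in any tumor of any group, PBS included. That is under the limit of 3 counts, so no difference between groups can be read from this gene.

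Per kilobase of exon, the 10 genes were ordered differently in PBS and ICB tumors. In PBS tumors the mean levels ran from Tnfsf9 (7.74 CPM per kb) and Cd80 (5.92) through Cd86 (2.90), Cd40 (2.77), Icosl (1.19) and Cd27 (0.991) to Tnfsf4 (0.537), Cd28 (0.353), Cd70 (0.0952) and Cd40lg (0.0495). After ICB the highest levels were those of Cd86 (17.8 CPM per kb) and Cd40 (16.6), followed by Tnfsf9 (6.49), Cd27 (5.77), Cd80 (5.38) and Cd28 (4.63). Tnfsf9 and Cd80 thus led in PBS tumors and stayed near their PBS level, whereas Cd86 and Cd40 passed both. Cd70 and Cd40lg remained the lowest in ICB tumors, at 0.419 and 0.710 CPM per kb. When the 6 groups were ordered by each gene's mean CPM, the ranges of neighbouring groups overlapped at all 50 of 50 steps, which is a description and not a test.

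**Figure D1:**
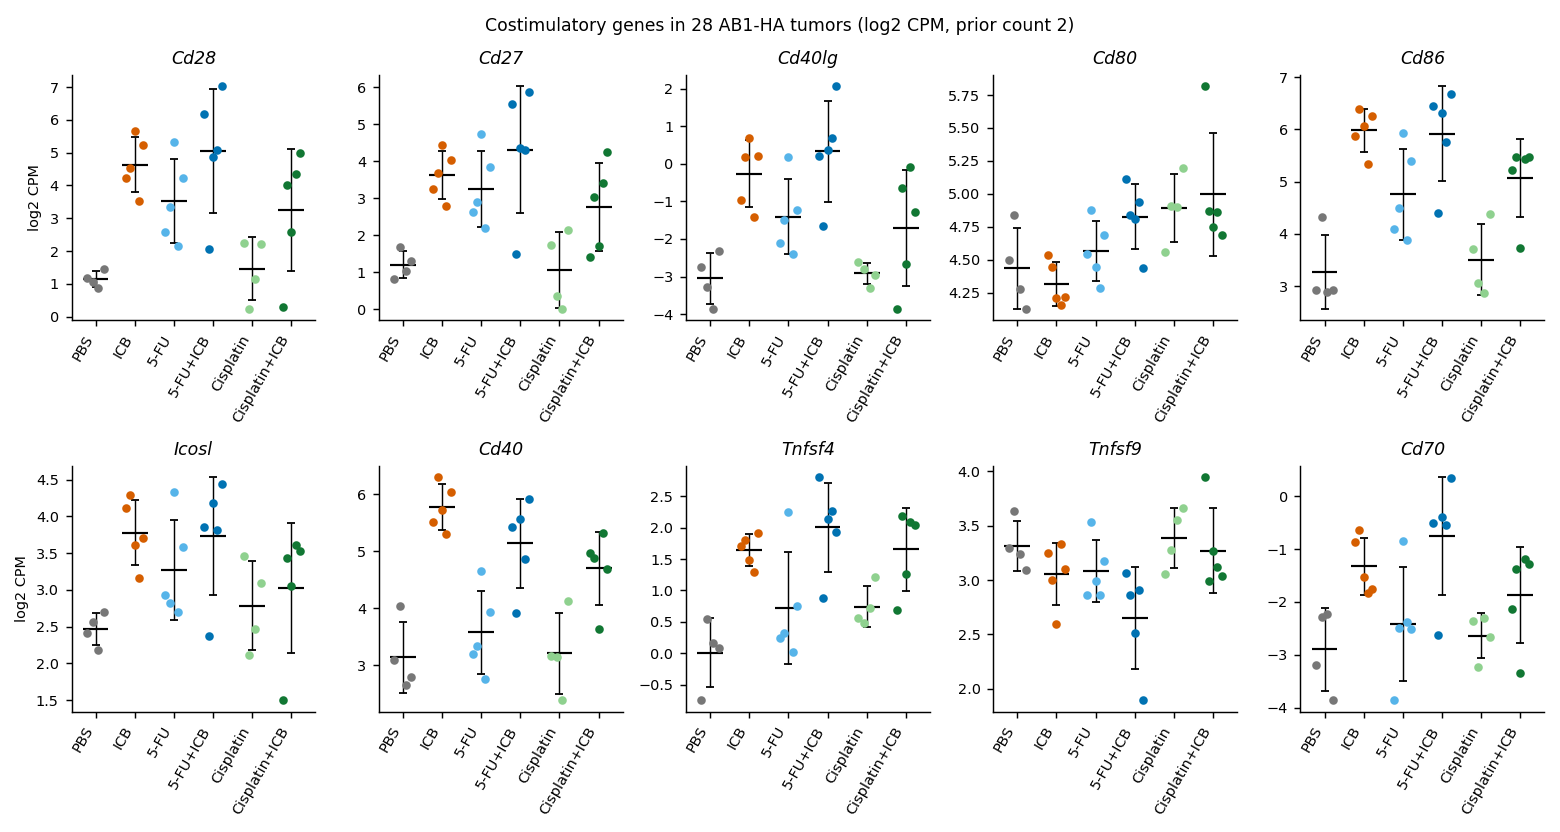
Log2 CPM (prior count 2) of the 10 genes in each of 28 tumors, by treatment group, with the group mean (bar) and SD (error bar); each panel has its own y axis. For 7 genes the ICB tumors sit above PBS in the edgeR test, while the ICB and PBS tumors overlap for Cd80 and Tnfsf9, neither of which was called.

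Whether ICB alone changed these genes was asked first. In ICB tumors, 7 of the 10 genes rose compared to PBS (edgeR quasi-likelihood test, Benjamini-Hochberg adjusted p under 0.05 over all genes tested and an absolute log2 fold change over 0.5), and none fell. Of all genes tested in this comparison, 37.8% were called, 19.0% higher and 18.8% lower, so the share among these genes was above the background. The 7 were the T cell genes Cd28, Cd27 and Cd40lg, the antigen-presenting cell genes Cd86, Cd40 and Icosl, and Tnfsf4. For 8 of the 10 genes every ICB tumor lay above every PBS tumor, the 7 named and Cd70, against 15.8% of all genes tested. The number called was 7 whichever tumor of the 2 groups was left out, and 8 by DESeq2, which added Cd70 and called 33.4% of all genes with an adjusted p, 18.6% as higher.

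After 5-FU alone 3 of 10 rose and none fell, where 23.0% of all genes tested were called and 9.98% were higher. These were Cd28, Cd27 and Cd86. ICB and 5-FU share the PBS tumors as control. Every 5-FU tumor lay above every PBS tumor for Cd28, Cd27 and Icosl (3 of 10 genes, against 9.27% of all genes). The result rested on single tumors: without tumor 3 of the 5-FU group or tumor 1 of the PBS group no gene was called (beside 16.5% and 10.5% of all genes), and without tumor 2 of the PBS group 1 was (7.87% of all genes). DESeq2 called 5 of the 10, and 24.9% of all genes. With all 6 groups in 1 edgeR fit none of the 3 was called (adjusted p = 0.0505 for Cd28, 0.0543 for Cd27 and 0.0569 for Cd86), beside 4.45% of all genes.

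After 5-FU+ICB 8 of 10 rose and 1 fell compared to PBS, where 40.7% of all genes tested were called (21.9% higher and 18.7% lower). The 8 were the 7 that rose after ICB and Cd70, and the gene that fell was Tnfsf9. All 5-FU+ICB tumors lay above all PBS tumors for Cd28, Cd40lg, Cd86 and Tnfsf4 (4 of 10 genes, against 10.9% of all genes), and tumor 2 of the combination was within the PBS range for the other genes that rose. Tnfsf9 was lower in all 5-FU+ICB tumors than in any PBS tumor, as were 14.7% of all genes. DESeq2 called 34.7% of all genes in this comparison, 20.7% as higher.

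Cisplatin alone called none of the 10 genes, and 0% of all genes tested, by edgeR. No gene of the 10 had an unadjusted p under 0.05, and DESeq2 also called 0. The edgeR log2 fold changes after cisplatin ran from 0.08 (Tnfsf9) to 0.73 (Tnfsf4) over the genes other than Cd40lg. After cisplatin+ICB 4 of 10 rose compared to PBS and none fell, where 6.10% of all genes tested were called (4.70% higher and 1.40% lower). The 4 were Cd28, Cd86, Cd40 and Tnfsf4, and only for Tnfsf4 did every treated tumor lie above every PBS tumor (3.43% of all genes tested did so). Without tumor 1 of the cisplatin+ICB group, which stood apart, 7 genes were called against 35.3% of all genes, with Cd27, Cd40lg and Icosl added. Without PBS tumor 1, 3 or 4 none was called, and 0% of all genes, and without tumor 2, 4 or 5 of the cisplatin+ICB group 1 was (1.40% to 2.04% of all genes). DESeq2 called 7 of the 10 with all tumors, beside 10.1% of all genes. When edgeR was fitted to PBS and cisplatin+ICB alone none of the 4 was called (adjusted p = 0.11 for Cd28, 0.104 for Cd86, 0.105 for Cd40 and 0.0972 for Tnfsf4), and 0% of all genes. With all 6 groups in 1 fit Cd28 lost its call (adjusted p = 0.0554), where 4.36% of all genes were called.

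**Figure D2:**
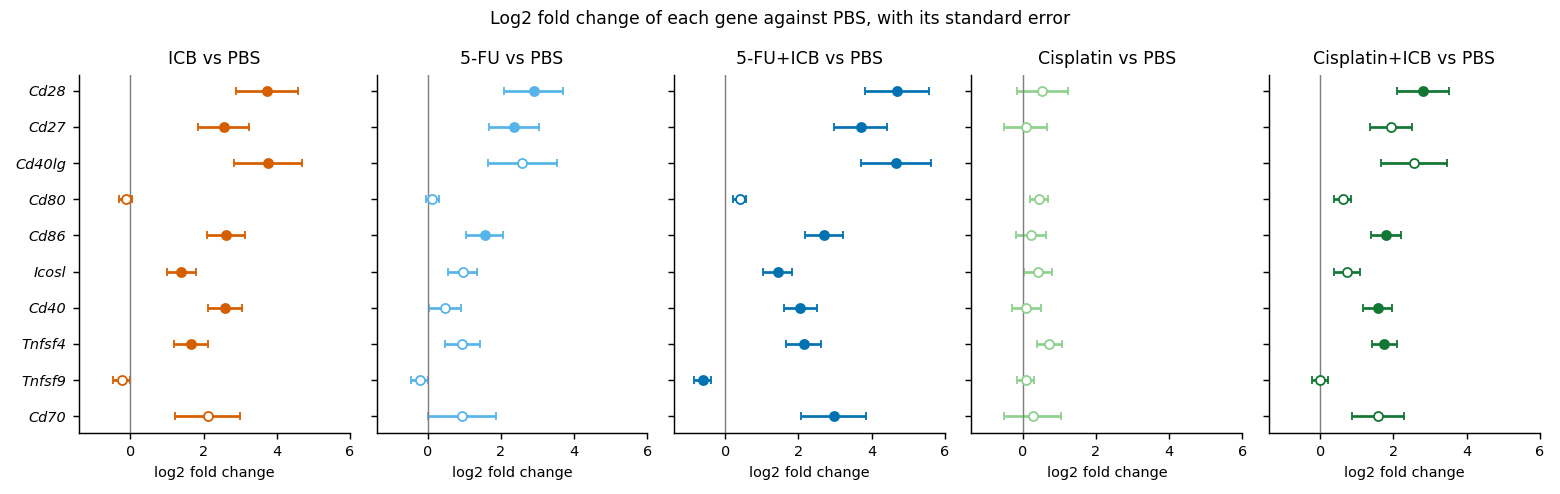
Log2 fold change (edgeR) of each gene in the 5 treated groups compared to PBS, with its standard error; filled points are called (adjusted p under 0.05 and absolute log2 fold change over 0.5) and Cd40lg is left out for cisplatin, where all 4 tumors had at most 3 counts. The filled points number 7, 3, 9, 0 and 4 from left to right, and Cd80 is called in no panel by edgeR.

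Cd28, the receptor for CD80 and CD86, varied widely between tumors. In PBS tumors it was at 2.19, 2.00, 1.77 and 2.69 CPM, and in ICB tumors at 18.7, 23.0, 50.8, 11.4 and 37.9 CPM. The 5-FU tumors had 5.89, 10.1, 40.2, 4.43 and 18.8 CPM, and the 5-FU+ICB tumors 73.0, 4.15, 29.4, 33.6 and 132 CPM. All tumors of these 3 treated groups were above the PBS range, but the 5-FU+ICB tumors spanned 31.7-fold from lowest to highest. Cisplatin tumors, at 4.65, 1.10, 2.15 and 4.59 CPM, overlapped PBS, and the cisplatin+ICB tumors had 1.17, 15.9, 5.95, 20.4 and 31.9 CPM, of which tumor 1 lay below every PBS tumor. The log2 fold change of Cd28 compared to PBS was 3.73 ± 0.84 (SE) after ICB (edgeR adjusted p = 0.00264) and 2.89 ± 0.81 after 5-FU (adjusted p = 0.0176). It was 4.68 ± 0.88 after 5-FU+ICB (adjusted p = 0.0011) and 2.82 ± 0.71 after cisplatin+ICB (adjusted p = 0.0306). Without tumor 3 the 5-FU value was 2.19 ± 0.75 and was not called (adjusted p = 0.0502), and without tumor 5 the 5-FU+ICB value was 4.04 ± 0.80 (adjusted p = 0.00212). The cisplatin+ICB call was kept in 2 of 9 fits that left out a tumor, with values of 2.35 to 3.18, the highest without tumor 1. In cisplatin tumors it was 0.54 ± 0.70 and was not called.

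Cd27, the receptor for CD70 that resting T cells carry, followed a similar order. PBS tumors had 1.70, 3.15, 1.99 and 2.39 CPM and ICB tumors 9.40, 12.7, 21.9, 6.91 and 16.3 CPM. In 5-FU tumors it was at 6.08, 7.47, 26.8, 4.52 and 14.3 CPM, and in 5-FU+ICB tumors at 46.6, 2.76, 20.4, 19.8 and 59.2 CPM. Only tumor 2 of the combination was within the PBS range. Cisplatin tumors had 3.28, 1.22, 0.939 and 4.32 CPM, and cisplatin+ICB tumors 2.60, 8.09, 3.24, 10.7 and 19.2 CPM. Cd27 rose by 2.55 ± 0.69 (log2, SE) after ICB (edgeR adjusted p = 0.00768), 2.36 ± 0.68 after 5-FU (adjusted p = 0.0201) and 3.71 ± 0.73 after 5-FU+ICB (adjusted p = 0.00135). Without tumor 3 the 5-FU value was 1.81 ± 0.64 (adjusted p = 0.0577), and without tumor 5 the 5-FU+ICB value was 3.29 ± 0.70 (adjusted p = 0.0028). After cisplatin+ICB its value was 1.94 ± 0.58 (adjusted p = 0.0547) with all tumors and 2.23 ± 0.55 (adjusted p = 0.00689) without tumor 1. Cd27 shares exonic bases with Mir8113 on the same strand, and its estimated counts were not whole in any of the 28 tumors. Those of Cd80 and Cd40 were not whole in 27 tumors and those of Cd86 in 15, although these 3 genes share exonic bases with no other gene.

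Cd40lg, the ligand that activated helper T cells show to CD40, was counted in few reads. PBS tumors had 2, 1, 0 and 4 counts, ICB tumors 13, 37, 39, 10 and 29, 5-FU tumors 6, 8, 24, 4 and 10, and 5-FU+ICB tumors 29, 8, 30, 50 and 83. Cisplatin tumors had 3, 2, 1 and 2 counts, and cisplatin+ICB tumors 0, 18, 3, 28 and 11. Every ICB and every 5-FU+ICB tumor had more Cd40lg counts than any PBS tumor. The log2 fold change was 3.76 ± 0.93 after ICB (edgeR adjusted p = 0.00473) and 4.66 ± 0.95 after 5-FU+ICB (adjusted p = 0.00163), both against 7 counts in the PBS group as a whole, and the latter was 3.98 ± 0.87 (adjusted p = 0.00336) without tumor 5. Without PBS tumor 4, which held 4 of those 7 counts, they were 4.41 and 5.31. After 5-FU it was 2.58 (adjusted p = 0.0509), 1.83 (adjusted p = 0.157) without tumor 3, and 3.24 and past the threshold without PBS tumor 4. After cisplatin+ICB it was 2.55 (adjusted p = 0.0936), 2.91 (adjusted p = 0.00997) without tumor 1, and 3.23 and not called without PBS tumor 4. All 4 cisplatin tumors were at or under 3 counts, so that the mean of the cisplatin+ICB tumors was at least 3.76-fold higher and that of the 5-FU tumors at least 4.03-fold higher than a cisplatin group set at 3 counts per library. Without 5-FU tumor 3 the latter bound was 2.35, and without cisplatin+ICB tumor 4 the former was 2.52.

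The summed CPM of the CD3 genes, which mark T cells, moved with these 3 genes: it was 8.43 to 15.3 in PBS tumors, 58.3 to 250.5 after ICB, 13.2 to 157 after 5-FU, 18.9 to 526 after 5-FU+ICB, 5.18 to 18.2 after cisplatin and 12.8 to 143 after cisplatin+ICB. In bulk tumors a change in the number of T cells and a change in RNA per T cell cannot be told apart. Each gene was therefore also taken relative to the mean log2 CPM of Cd3d, Cd3e and Cd3g in the same tumor. On this scale Cd28 did not differ between ICB and PBS beyond the spread (-0.59 ± 0.09 and -0.70 ± 0.47, mean ± SD, exact permutation p = 0.698). Cd27 was lower relative to the CD3 genes after ICB. The 5 ICB tumors lay at -1.66, -1.38, -1.82, -1.38 and -1.67, and the PBS tumors at -0.68, -0.68, -0.66 and -0.50, so the groups did not overlap. The difference was -0.95 (two-sided exact permutation p = 0.00794, the smallest that this design allows, and adjusted p = 0.0429 over 27 tests of this kind). It is not a difference per T cell, since the part of other cells in Cd27 RNA was not tested. From PBS to ICB the median marker sums went from 10.5 to 107 CPM for T cells, 15.4 to 29.7 CPM for NK cells and 15.0 to 7.91 CPM for B cells. The Cd27 difference from PBS was also below 0 in the combination, at -0.63 (same exact p and adjusted p), and 5-FU+ICB tumors were lower than 5-FU tumors by 0.94 (same values again). For Cd28, 5-FU tumors were higher than PBS tumors by 0.65 on this scale and 5-FU+ICB tumors lower than 5-FU tumors by 0.47, with no overlap in either case. These 5 were the tests of 27 with an adjusted p under 0.05, and each used the smallest p possible for its group sizes, so with any PBS, ICB, 5-FU or 5-FU+ICB tumor left out none stayed under 0.05.

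**Figure D3:**
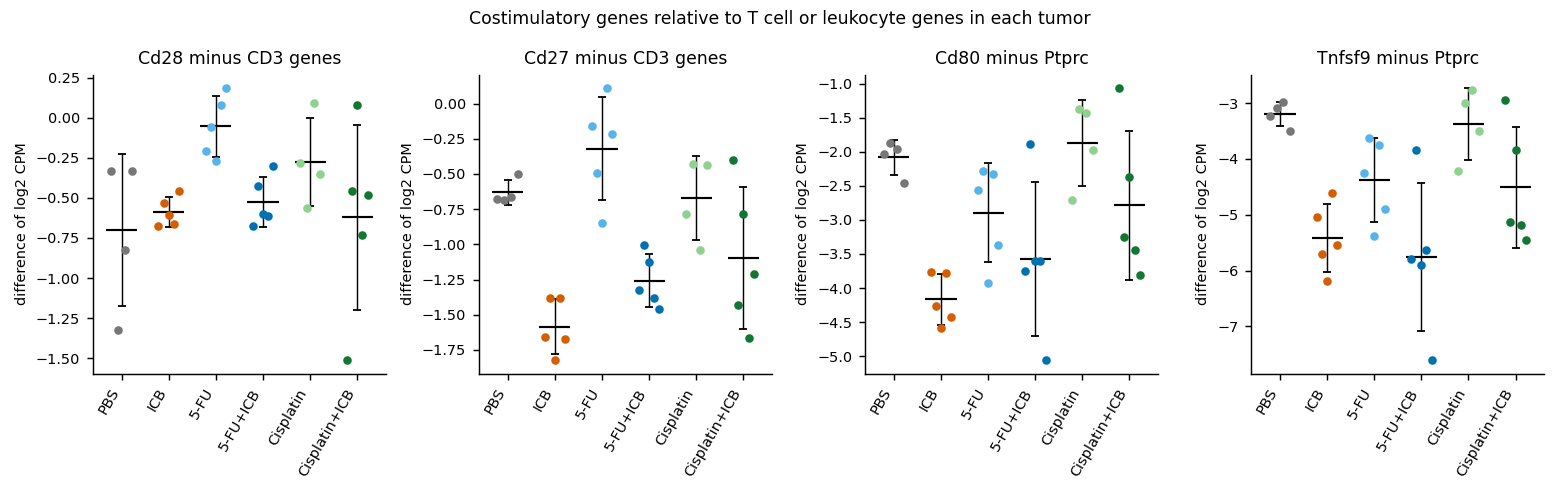
Difference of log2 CPM in each tumor between Cd28 or Cd27 and the mean of Cd3d, Cd3e and Cd3g, and between Cd80 or Tnfsf9 and Ptprc, by group, with mean and SD. Cd27 lies lower relative to the CD3 genes in all 5 ICB tumors than in any PBS tumor, and Cd28 does not; the level of a difference also holds the genes' lengths, so only its change between groups can be read.

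Cd86, a ligand of CD28 and CTLA-4 on antigen-presenting cells, and Cd40, the receptor through which T cells activate those cells, rose together after ICB. Cd86 was at 7.58, 20.0, 7.33 and 7.50 CPM in PBS tumors and at 58.4, 83.7, 67.4, 40.4 and 76.2 CPM in ICB tumors. Cd40 was at 8.39, 16.3, 6.21 and 6.81 CPM in PBS tumors and at 45.5, 79.1, 53.1, 39.5 and 65.5 CPM in ICB tumors. In both, PBS tumor 2 was the highest of its group and still below every ICB tumor. The log2 fold change was 2.62 ± 0.52 for Cd86 (edgeR adjusted p = 0.00126) and 2.58 ± 0.46 for Cd40 (adjusted p = 0.000701), the smallest adjusted p of the 10 genes in this comparison.

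The 2 genes were not called alike after 5-FU. Cd86 in 5-FU tumors was at 16.9, 22.4, 60.7, 14.8 and 41.8 CPM, a log2 fold change of 1.55 ± 0.50 (edgeR adjusted p = 0.0304). Cd40 in the same tumors was at 9.09, 10.1, 25.1, 6.66 and 15.2 CPM, a log2 fold change of 0.47 ± 0.43 (adjusted p = 0.421), and 4 of these 5 tumors were within the PBS range. Without tumor 3 the values were 1.16 ± 0.47 for Cd86, which lost its call (adjusted p = 0.0885), and 0.10 ± 0.41 for Cd40. The difference between the 2 genes' responses was not tested. With ICB added, Cd86 was at 87.4, 21.0, 79.3, 54.3 and 103 CPM and Cd40 at 43.0, 15.1, 47.3, 28.9 and 60.4 CPM, log2 fold changes from PBS of 2.70 ± 0.52 (adjusted p = 0.00124) and 2.05 ± 0.45 (adjusted p = 0.00246). Tumor 2 was the lowest for both.

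Cisplatin tumors had 13.1, 8.26, 7.27 and 20.9 CPM of Cd86 and 8.87, 8.79, 5.13 and 17.4 CPM of Cd40, overlapping PBS in both. The cisplatin+ICB tumors had 37.1, 44.6, 13.3, 43.3 and 44.4 CPM of Cd86 and 31.3, 29.4, 12.3, 40.2 and 25.8 CPM of Cd40, and tumor 3 overlapped PBS for both. Compared to PBS, Cd86 rose by 1.80 ± 0.42 (edgeR adjusted p = 0.0234) and Cd40 by 1.57 ± 0.39 (adjusted p = 0.0296), and each kept its call in 3 of 9 fits that left out a tumor. The Ptprc level, a marker of all leukocytes, was 74.9 to 105 CPM in PBS tumors, 245 to 442 CPM after ICB and 118 to 361 CPM after cisplatin+ICB, and macrophage markers (6 of 6 detected) summed to 1348 to 2057 CPM in PBS and 2800 to 7719 CPM in ICB tumors. Relative to Ptprc no gene of the 10 passed an adjusted p of 0.05 in 90 exact permutation tests (smallest adjusted p = 0.0893), which the group sizes limit.

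Icosl, the ligand of ICOS, had a smaller log2 fold change after ICB than Cd86 and Cd40, a difference that was not tested. It ranged from 4.48 to 6.44 CPM in PBS tumors and was at 17.3, 19.4, 12.1, 8.92 and 13.0 CPM after ICB, with a log2 fold change of 1.39 ± 0.40 (edgeR adjusted p = 0.0107). After 5-FU it was at 7.58, 6.97, 20.0, 6.44 and 11.9 CPM, each above PBS if only just for tumor 4 (6.442 against 6.440 CPM), and its log2 fold change of 0.95 was not called (adjusted p = 0.0802), nor was 0.58 without tumor 3 (adjusted p = 0.25). 5-FU+ICB tumors had 14.4, 5.11, 18.1, 14.01 and 21.6 CPM, a log2 fold change of 1.44 ± 0.40 (adjusted p = 0.00854). Icosl was 4.26 to 10.9 CPM after cisplatin and 2.75, 10.8, 8.24, 12.2 and 11.4 CPM after cisplatin+ICB. The cisplatin+ICB value of 0.73 (adjusted p = 0.239) became 1.03 ± 0.30 (adjusted p = 0.0139) without tumor 1, the lowest Icosl level of all tumors.

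Cd80, the other ligand of CD28 and CTLA-4, did not follow Cd86. It was at 22.5, 28.6, 19.3 and 17.4 CPM in PBS tumors and 23.2, 21.7, 18.4, 17.8 and 18.5 CPM in ICB tumors, and the log2 fold change was -0.12 ± 0.18 (edgeR adjusted p = 0.591). 5-FU tumors had 23.2, 29.4, 21.7, 19.4 and 25.7 CPM, and 5-FU+ICB tumors 34.6, 28.5, 28.0, 30.5 and 21.6 CPM. The latter gave a log2 fold change of 0.39 ± 0.18 from PBS (adjusted p = 0.0856). Cisplatin tumors had 23.5, 30.0, 29.7 and 36.5 CPM and cisplatin+ICB tumors 56.5, 29.1, 26.8, 28.9 and 25.6 CPM. From PBS the latter differed by 0.62 ± 0.23 (edgeR adjusted p = 0.112), or 0.40 ± 0.18 without tumor 1 (adjusted p = 0.0941), while DESeq2 called Cd80 higher there (0.68, adjusted p = 0.0443). All cisplatin+ICB tumors were thus above all ICB tumors, as were 0.196% of all genes tested. The edgeR log2 fold change was 0.75 ± 0.22, which missed the threshold (adjusted p = 0.291), and it was 0.50 ± 0.17 (adjusted p = 0.518) without tumor 1.

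Cd86 relative to Cd80 within a tumor, as the difference of their log2 CPM, was -1.17 ± 0.46 in PBS and 1.67 ± 0.39 (mean ± SD) in ICB tumors. The PBS tumors were at -1.56, -0.51, -1.39 and -1.21 and the ICB tumors at 1.33, 1.94, 1.87, 1.18 and 2.03. The groups differed by 2.84 and did not overlap (two-sided exact permutation p = 0.00794, adjusted p = 0.0714 over 63 tests of receptor and ligand pairs). The difference was 0.19 ± 0.87 in 5-FU, 1.09 ± 1.00 in 5-FU+ICB, -1.38 ± 0.65 in cisplatin and 0.07 ± 0.82 in cisplatin+ICB tumors, and every cisplatin+ICB tumor lay below every ICB tumor (difference -1.60, exact p = 0.00794, adjusted p = 0.0714). Other pairs without overlap with PBS included Ctla4 and Cd28. The Ctla4 minus Cd28 difference changed by -2.15 after ICB and by -2.12 after 5-FU+ICB (exact p = 0.00794 and adjusted p = 0.0714 for each). Icos lay above its PBS range relative to Icosl in all tumors given ICB (difference 1.28), 5-FU (1.46), 5-FU+ICB (1.87) and cisplatin+ICB (0.96), but in cisplatin tumors the difference from PBS was 0.10. Tnfrsf9, the 4-1BB receptor, was higher relative to its ligand gene Tnfsf9 by 2.57 after ICB (exact p = 0.00794, adjusted p = 0.0714). None of the 63 tests of pairs had an adjusted p under 0.05, and the smallest exact p that 4 against 5 tumors allow is 0.00794.

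**Figure D4:**
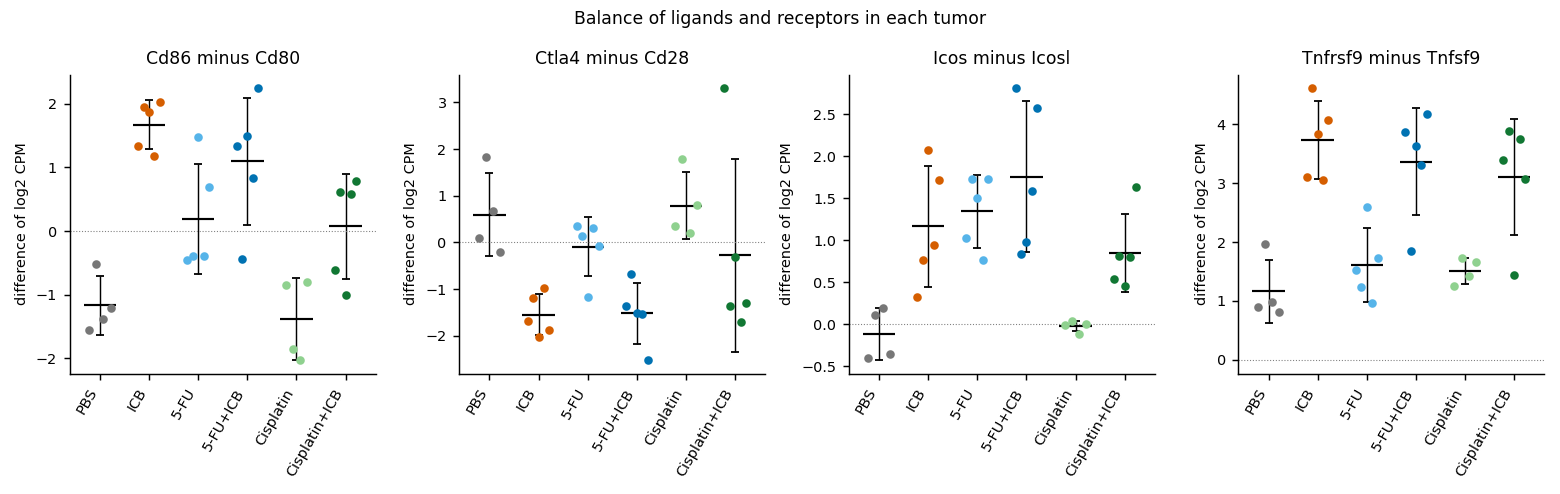
Difference of log2 CPM within each tumor for Cd86 minus Cd80, Ctla4 minus Cd28, Icos minus Icosl and Tnfrsf9 minus Tnfsf9, by group, with mean and SD. Cd86 minus Cd80 lies between -1.56 and -0.51 in PBS tumors and between 1.18 and 2.03 in ICB tumors; since the genes differ in length, the dotted line at 0 marks no balance point.

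Tnfsf4, which encodes the ligand of OX40 on activated antigen-presenting cells, was low and rose in all 3 groups given ICB compared to PBS. PBS tumors had 0.527, 1.39, 1.05 and 0.996 CPM, ICB tumors 3.20, 3.42, 2.72, 2.37 and 3.70 CPM, and 5-FU+ICB tumors 6.92, 1.77, 4.33, 4.76 and 3.75 CPM. The cisplatin+ICB tumors had 1.54, 4.46, 2.33, 4.20 and 4.05 CPM. In each of these groups every tumor was above every PBS tumor, by log2 fold changes of 1.66 ± 0.48 (ICB, edgeR adjusted p = 0.0109), 2.14 ± 0.48 (5-FU+ICB, adjusted p = 0.00282) and 1.75 ± 0.34 (cisplatin+ICB, adjusted p = 0.0134). Compared to the chemotherapy alone, the combinations were not called (adjusted p = 0.202 for 5-FU+ICB and 0.16 for cisplatin+ICB), and the cisplatin+ICB call from PBS was kept in 6 of 9 fits that left out a tumor. Cisplatin alone gave 1.41, 1.33, 1.58 and 2.25 CPM (0.73 ± 0.35, not called). After 5-FU, 4 tumors were at 0.946 to 1.61 CPM and tumor 3 at 4.67 CPM, and the log2 fold change was 0.95 (adjusted p = 0.138) with tumor 3 and 0.30 (adjusted p = 0.584) without it.

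Cd70, the ligand of CD27, was near the detection limit. PBS tumors had 1, 4, 4 and 0 counts, ICB tumors 14, 20, 7, 7 and 6, 5-FU tumors 0, 3, 11, 4 and 3, and 5-FU+ICB tumors 17, 3, 17, 20 and 24. Cisplatin tumors had 4, 1, 4 and 3 counts and cisplatin+ICB tumors 3, 10, 1, 12 and 11. Cd70 rose after 5-FU+ICB (log2 fold change 2.96 ± 0.89, edgeR adjusted p = 0.013). After ICB its value was 2.12 ± 0.89 (adjusted p = 0.0629), although no ICB tumor overlapped PBS, and after cisplatin+ICB 1.58 (adjusted p = 0.183). With 9 counts in all PBS tumors together, changes of this size were at the limit of what the depth can show.

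Tnfsf9, the ligand of 4-1BB, was the only one of the 10 genes called lower in any comparison. It was at 9.73, 12.4, 9.39 and 8.47 CPM in PBS tumors and at 8.30, 7.22, 5.63, 7.45 and 3.65 CPM in 5-FU+ICB tumors, a log2 fold change of -0.62 ± 0.23 (edgeR adjusted p = 0.0387). The call depended on the processing: with DESeq2's size factors in edgeR the value was -0.56 (adjusted p = 0.0529), and without tumor 5 of the combination -0.47 (adjusted p = 0.0821). ICB tumors had 9.43, 7.93, 6.00, 9.98 and 8.50 CPM (log2 fold change -0.24 ± 0.23) and 5-FU tumors 7.20, 11.5, 7.88, 7.21 and 8.96 CPM (-0.22), neither of which was called. Cisplatin tumors were at 8.24, 9.63, 11.6 and 12.6 CPM, and cisplatin+ICB tumors at 15.4, 7.87, 9.54, 8.62 and 8.14 CPM, with tumor 1 the highest. That order rests on the TMM factors (0.685 for tumor 1 and 1.14 for tumor 3 of that group). By counts, tumor 1 had 290 of 27570127 and tumor 3 had 324 of 29712163. Tnfsf9 shares exonic bases with Gm11110 on the other strand, and its estimated counts were not whole in any tumor, as for Cd27.

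The additions of one treatment to another were compared next, to ask whether combinations differed from their parts. Between 5-FU+ICB and ICB none of the 10 genes was called by edgeR or DESeq2 (0.229% of all genes tested were by edgeR, 0.0670% as higher and 0.162% as lower), and 1 gene had an unadjusted edgeR p under 0.05 (10.9% of all genes did): Cd80, higher by 0.52 ± 0.17 (adjusted p = 0.244). Cd40 was at -0.54 ± 0.40 and Cd28 at 0.95 ± 0.68 in that comparison, the latter at 0.31 ± 0.66 without 5-FU+ICB tumor 5. Cd27 was at 1.16 ± 0.60 and Cd40lg at 0.90 ± 0.68, or 0.74 ± 0.59 and 0.22 ± 0.65 without that tumor, Cd70 at 0.84 ± 0.71 (0.50 ± 0.73 without it), Tnfsf4 at 0.48 ± 0.42 and Tnfsf9 at -0.38 ± 0.22 (-0.24 ± 0.20). Cd86 (0.08) and Icosl (0.05) changed sign when it was left out. Between 5-FU+ICB and 5-FU edgeR called none (0.0112% of all genes) although 7 of 10 had an unadjusted p under 0.05 (16.6% of all genes did), and DESeq2 called Cd40 and 2.97% of all genes. The smallest p was that of Cd40 (log2 fold change 1.57 ± 0.41, unadjusted p = 0.00117, adjusted p = 0.134). The other 6 were Cd40lg (2.08 ± 0.72), Cd70 (2.03 ± 0.76), Cd28 (1.79 ± 0.70), Cd27 (1.34 ± 0.60), Tnfsf4 (1.19 ± 0.43) and Cd86 (1.15 ± 0.45). Without 5-FU+ICB tumor 5 Cd40lg was at 1.40 ± 0.67, Cd28 at 1.15 ± 0.66 and Cd27 at 0.93 ± 0.60. With 5-FU tumor 3 left out Cd70 was at 2.93 ± 0.79, Cd40lg at 2.84 ± 0.74, Cd28 at 2.49 ± 0.71 and Tnfsf4 at 1.84 ± 0.36. Icosl was at 0.49 ± 0.36, Cd80 at 0.27 ± 0.17 and Tnfsf9 at -0.39 ± 0.22. Without tumor 2 of the 5-FU+ICB group, the tumor with few T cell markers, 7 genes were called: Cd28, Cd27, Cd40lg, Cd86, Cd40, Tnfsf4 and Cd70, beside 10.9% of all genes. Without tumor 3 of the 5-FU group 4 were called, Cd40lg, Cd40, Tnfsf4 and Cd70, beside 3.58% of all genes.

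Between cisplatin+ICB and ICB, edgeR and DESeq2 called none of the 10 genes, and edgeR 0% of all genes. Unadjusted p-values were under 0.05 for 3 (and for 15.9% of all genes): Cd80 above, and Cd40 (-1.02 ± 0.36) and Cd86 (-0.83 ± 0.38), which had negative values in the combination. Cd40lg (-1.20 ± 0.68), Cd28 (-0.91 ± 0.61), Icosl (-0.64 ± 0.34), Cd27 (-0.61 ± 0.51) and Cd70 (-0.52 ± 0.57) were also below 0, Tnfsf9 was at 0.24 ± 0.21, and Tnfsf4 (0.11 ± 0.30) changed sign when a tumor was left out. Between cisplatin+ICB and cisplatin edgeR again called none and 0% of all genes, 6 had an unadjusted p under 0.05 (14.2% of all genes did), and DESeq2 called 5 (Cd28, Cd27, Cd86, Cd40 and Tnfsf4) and 4.20% of all genes (3.83% higher). Cd86 and Cd40 had log2 fold changes of 1.57 ± 0.41 and 1.48 ± 0.39 (edgeR adjusted p = 0.0987 for each), Cd28 2.28 ± 0.69, Cd27 1.85 ± 0.58, Cd70 1.31 ± 0.68, Tnfsf4 1.03 ± 0.33 and Icosl 0.33 ± 0.36, while Cd80 (0.17 ± 0.23) and Tnfsf9 (-0.08 ± 0.22) changed sign when a tumor was left out. Without tumor 1 of the cisplatin+ICB group, edgeR called 6, these 5 and Cd40lg, where 11.9% of all genes were called, and without tumor 3 of that group 2, beside 3.04%.

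The 2 chemotherapies were compared directly in a fit of all 6 groups. Between 5-FU and cisplatin edgeR called none of the 10 (0.362% of all genes, 0.0918% higher and 0.270% lower), 4 had an unadjusted p under 0.05 (15.5% of all genes did), and DESeq2 called Cd28 and Cd27 and 3.67% of all genes (2.70% higher). The edgeR log2 fold changes were 2.34 ± 0.82 for Cd28 (adjusted p = 0.174, and 1.65 ± 0.79 with adjusted p = 0.495 without 5-FU tumor 3), 2.27 ± 0.71 for Cd27 (adjusted p = 0.13) and 1.34 ± 0.47 for Cd86 (adjusted p = 0.176). Icosl was at 0.54 ± 0.41, Cd40 at 0.39 ± 0.42, Cd80 at -0.33 ± 0.21 and Tnfsf9 at -0.30 ± 0.24, and Cd70 (0.66 ± 0.84) and Tnfsf4 (0.21 ± 0.43) changed sign when a tumor was left out. Every 5-FU tumor lay above every cisplatin tumor for Cd27 and Cd40lg (2 of 10, against 5.29% of all genes). Between 5-FU+ICB and cisplatin+ICB none was called by edgeR (0.297% of all genes), 5 had an unadjusted p under 0.05 (25.7% of all genes did), and DESeq2 called Tnfsf9, which was lower after 5-FU+ICB (edgeR -0.62 ± 0.22, adjusted p = 0.107). DESeq2 called 8.32% of all genes there, so 1 of 10 is near the background. The other 4 were Cd40lg (2.08 ± 0.74), Cd28 (1.85 ± 0.74, or 1.21 ± 0.73 without 5-FU+ICB tumor 5), Cd27 (1.76 ± 0.63) and Cd86 (0.92 ± 0.43). Cd40lg ranged from 1.41 to 2.63 over tumors left out. Cd70 was at 1.36 ± 0.68, Icosl at 0.69 ± 0.38, Cd40 at 0.49 ± 0.39 and Tnfsf4 at 0.37 ± 0.40, and Cd80 (-0.22 ± 0.20) changed sign when a tumor was left out. Without tumor 2 of the 5-FU+ICB group 3 were called, Cd28, Cd27 and Cd40lg, beside 11.6% of all genes.

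Whether chemotherapy and ICB combined other than additively on the log2 scale was tested by interaction terms, and neither term was called for any of the 10 genes by edgeR or DESeq2 (0.0893% of all genes for 5-FU, 0.0781% with a negative term, and 0% for cisplatin, by edgeR, and 9.57% and 0.00285% by DESeq2). The interaction with 5-FU had an unadjusted p under 0.05 for 1 gene, Cd86 (-1.47 ± 0.66, edgeR adjusted p = 0.184), where 23.9% of all genes had one, and the interaction with cisplatin for 0 (7.14% of all genes). Estimates with 5-FU ran from -1.94 ± 1.02 (Cd28) to 0.40 ± 0.25 (Cd80), the former at -1.24 ± 0.95 without 5-FU tumor 3 and -2.58 ± 0.98 without 5-FU+ICB tumor 5. Those of Cd40lg, Cd27, Cd40, Icosl, Tnfsf4, Tnfsf9 and Cd70 lay between, from -1.68 ± 1.14 (Cd40lg) to -0.09 ± 0.92 (Cd70). Without 5-FU tumor 3 Cd40lg was at -0.93 ± 1.06, and Cd70 (0.81 ± 1.15) and Tnfsf4 (0.18 ± 0.49) changed sign. With cisplatin they ran from -1.45 ± 0.92 (Cd28) to 0.29 ± 0.32 (Cd80), with Tnfsf9 at 0.16 ± 0.31 and Cd40lg, Cd40, Cd86, Icosl, Cd70, Cd27 and Tnfsf4 between -1.28 ± 1.31 and -0.62 ± 0.46. The standard errors of the interaction for Cd28 and Cd40lg were 0.92 to 1.31, so differences of that size were not resolved.

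Tumors of the same group that had more of one gene often had more of another. Taken as deviations from group means over the 28 tumors, Cd86 and Cd40 had the highest Pearson's r (r = 0.95, Spearman's rho = 0.94). The permutation p was 1e-05 for both, the smallest that 100000 permutations within groups can give (adjusted p = 0.000112 over 45 pairs). Without the 2 tumors farthest from the median r was 0.93. Cd28 and Cd27 were next by r (r = 0.94, same permutation p, r = 0.93 without the 2 farthest) and had the highest rho (0.96). The 28 pairs among the 8 genes other than Cd80 and Tnfsf9 all had r between 0.57 and 0.95. Cd80 and Tnfsf9 stood outside this group: with those 8 genes their r was -0.61 to 0.25 (16 pairs), but with each other it was 0.82 (permutation p = 2e-05, adjusted p = 0.00015; rho = 0.78, permutation p = 3e-05) and 0.76 without the 2 farthest tumors. All pairs share the tumor's library and its scaling factor.

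**Figure D5:**
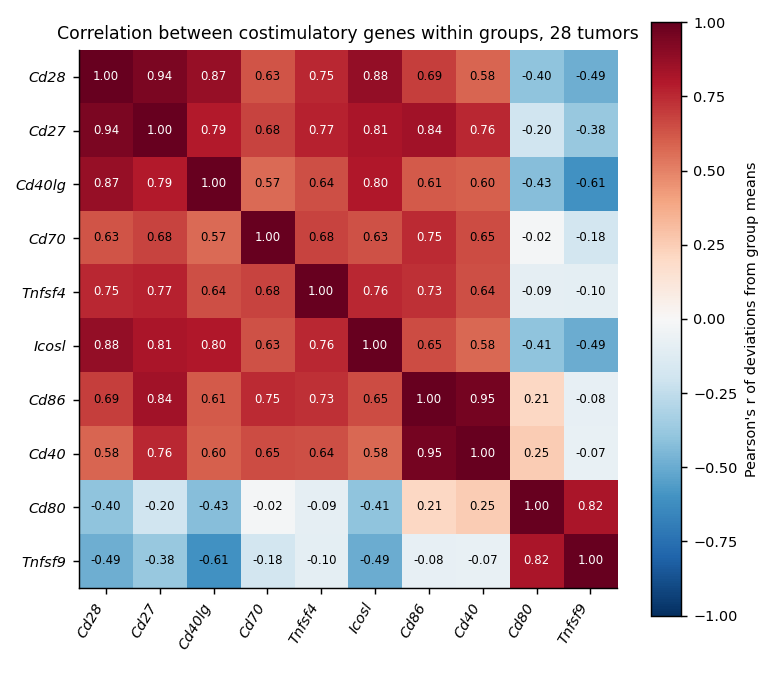
Pearson's r between the log2 CPM of each pair of genes over 28 tumors, as deviations from the group means; red is positive and blue negative. Cd80 and Tnfsf9 correlate with each other at 0.82, and the other 8 genes form a block with r of 0.57 to 0.95.

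The same deviations were set against cell type markers (60 relations), with each list taken as the mean log2 CPM of its genes and not as summed CPM. Cd28 and Cd27 followed the CD3 genes (r = 0.97 with rho = 0.97, and r = 0.98 with rho = 0.98; permutation p = 1e-05 and adjusted p = 5.45e-05 for each r). Icosl was closest to dendritic cell markers (r = 0.90, rho = 0.87, permutation p = 1e-05, adjusted p = 5.45e-05) and Cd86 to Ptprc (r = 0.84, rho = 0.84, permutation p = 2e-05, adjusted p = 8.57e-05). For Cd80 no relation to Ptprc was detected (r = -0.23, rho = -0.18, permutation p = 0.321), nor to tumor cell markers (r = 0.10, permutation p = 0.661). The latter list cannot decide this for tumor cells, since its genes weigh equally and all but Msln (median 142 CPM) had medians of at most 1.04 CPM. Tnfsf9 against dendritic cell markers passed by r (r = -0.56, permutation p = 0.0161, adjusted p = 0.0247) but not by rank (rho = -0.42, permutation p = 0.0489, adjusted p = 0.0716), with r = -0.46 without the 2 farthest tumors.

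Among 13333 or 13334 other genes with a mean count of at least 50, those whose log2 CPM was most like that of each member over the 28 tumors differed between the same sets. These are descriptions over tumors that share groups and libraries. Cd28 was most like Trac, Prkcq and Cd3g (Pearson's r = 0.99 for each), which encode T cell receptor components and a T cell kinase, and Cd27 most like Cd2, S1pr4 and Icos (0.98, 0.98 and 0.97). Cd86 was nearest to Gm15056, Nrros and Klrk1 and Cd40 to H2-T23, Sp140 and AB124611 (r of 0.97 for each). For Icosl the nearest were Fam117a, Rassf2 and Kif1a (0.95, 0.94 and 0.94), and for Tnfsf4 Emb, Ptpn7 and Tnfsf14 (0.91, 0.90 and 0.89). Cd40lg was nearest to Il2rg, Pglyrp2 and Tgm1 (0.96 each) and Cd70 to Kynu, Lat and Cd52 (0.89, 0.87 and 0.87). Tnfsf9 was most like Il11, a cytokine gene, with Tiparp and Fgfr1op (0.90, 0.89 and 0.87). Cd80 had no close match, with Angptl4, Nmrk1 and Azin2 at 0.78, 0.75 and 0.72, and Azin2 fell to 0.46 without the 2 tumors farthest from the median.

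The other genes of these pathways were counted by list. Of 16 partner receptors and ligands, edgeR called 11 higher after ICB, 4 after 5-FU, 15 after 5-FU+ICB and 5 after cisplatin+ICB compared to PBS, where 19.0%, 9.98%, 21.9% and 4.70% of all genes tested were called higher. The list had median log2 fold changes of 2.21, 1.28, 2.26 and 1.57 beside medians of -0.03, -0.01, -0.04 and 0.03 over all genes tested. None of the 16 was called lower in these comparisons, and none was called after cisplatin alone. All calls after cisplatin+ICB, here and in the next lists, were lost without PBS tumor 1, 3 or 4, where no gene at all was called. The same held with PBS and cisplatin+ICB fitted alone. List counts after 5-FU were not taken with tumors left out. Icos, the receptor of ICOSL, rose by 2.72 ± 0.64 after ICB (edgeR adjusted p = 0.00334), 2.53 ± 0.63 after 5-FU (adjusted p = 0.0113), 3.66 ± 0.67 after 5-FU+ICB (adjusted p = 0.000957) and 1.85 ± 0.49 after cisplatin+ICB (adjusted p = 0.0352). Ctla4 rose by 1.68 ± 0.57 after 5-FU (adjusted p = 0.0393) and 2.03 ± 0.58 after 5-FU+ICB (adjusted p = 0.00993), with a value of 1.26 ± 0.57 after ICB (adjusted p = 0.0818). Tnfrsf9 rose by 2.24 ± 0.48 after ICB (adjusted p = 0.00199), 1.52 ± 0.47 after 5-FU+ICB (adjusted p = 0.0146) and 1.98 ± 0.48 after cisplatin+ICB (adjusted p = 0.0254), and was at 0.15 ± 0.45 after 5-FU. Tnfrsf4, the OX40 receptor, rose after 5-FU+ICB (2.25 ± 0.58, adjusted p = 0.00584) and was at 1.22 ± 0.56 after ICB (adjusted p = 0.0879). Among the other partners the largest changes were those of Tnfsf15 (3.73) and Slamf1 (2.95) after ICB, Slamf1 (1.82) and Tnfrsf14 (0.95) after 5-FU, Slamf1 (4.02) and Cd2 (3.42) after 5-FU+ICB, and Tnfrsf14 (1.75) and Tnfrsf8 (1.62) after cisplatin+ICB.

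Downstream, of 10 genes of CD28 signalling 9 rose after ICB, 6 after 5-FU, 9 after 5-FU+ICB and 2 after cisplatin+ICB. These counts and those of the next lists stand against the same shares of all genes. Among them the kinase gene Prkcq rose by log2 fold changes of 2.67 after ICB, 3.45 after 5-FU+ICB and 1.87 after cisplatin+ICB, and the adaptor gene Grap2 by 1.85 after 5-FU. Bcl10, an adaptor in the same list, was at -0.10 ± 0.17 after ICB and -0.05 ± 0.17 after 5-FU+ICB. All 5 NF-kB subunit and feedback genes rose after ICB and after 5-FU+ICB and 2 after 5-FU, with Tnfaip3 (2.04, 1.87 and 1.99 after ICB, 5-FU and 5-FU+ICB) and Rel (1.34, 1.28 and 1.37) as the largest. Of 5 TRAF adaptors 2 rose after ICB (Traf6 by 0.96 and Traf1 by 0.77), 1 after 5-FU (Traf3 by 0.99) and 3 after 5-FU+ICB (among them Traf1 by 0.86 and Traf3 by 0.85). Of 5 genes of the noncanonical NF-kB pathway, which CD40 and other TNF receptors engage, Birc3 and Relb rose after ICB (1.41 and 0.82) and 5-FU+ICB (1.38 and 0.91), and Birc3 alone after 5-FU (0.71). Their list medians after ICB were 2.08, 0.91, 0.74 and 0.23 in the order given, and none of these 4 lists had a gene called after cisplatin, or, CD28 signalling apart, after cisplatin+ICB.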

How the data were processed

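RNA of 28 whole tumors was sequenced by the authors as 100-base single-end reads. Per the submitters' processing notes and the study's methods, reads were handled with bcl2fastq 2.20.0.422 and kallisto 0.46.0 against GRCm38/mm10 and summed to genes with tximport, giving 2 deposited tables of estimated counts, with 9 tumors (PBS and ICB) present in both. Of their values 23.7% were not whole, and the estimated counts were rounded. Strand use in counting is not given in the sources used here.

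edgeR 4.0.16 with limma 3.58.1 in R 4.3.3 was used for filterByExpr, TMM scaling and the quasi-likelihood test, with PBS, ICB and the 2 groups of one drug in each fit and all 6 groups where the drugs were compared. A gene was called at a Benjamini-Hochberg adjusted p under 0.05 over all genes tested and an absolute log2 fold change over 0.5, as in the study's methods, which used DESeq2 (version 1.42.0 here, as an alternative). Log2 CPM had a prior count of 2. Single values were compared by two-sided exact permutation tests, and correlations by 100000 permutations within groups, with Benjamini-Hochberg adjustment over the tests of each kind. The scripts were tested on simulated data. Gene lengths came from GENCODE M21.

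The 10 genes, the pathway lists and the marker lists were chosen with earlier results of these data known. All 10 genes are named in each comparison, and of a pathway list the direct partners and the 2 largest changes among those called, except that 1 gene of the CD28 signalling list is counted but not reported by name here. Alternatives were DESeq2, its size factors in edgeR, no filter or at least 10 counts in every tumor, no fold change threshold, other sets of groups, a prior count of 0.5, the replicate number as a block, and each tumor left out.

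The marker lists were read as summed CPM, except in the correlations, which used the mean log2 CPM of a list's genes. The sums are given here as group medians in the order PBS, ICB, 5-FU, 5-FU+ICB, cisplatin and cisplatin+ICB. Ptprc was at 94.1, 401, 143, 373, 112 and 279 CPM. T cell markers were at 10.5, 107, 34.8, 166, 12.0 and 70.4 CPM, CD8 T cell markers at 9.49, 130.1, 33.1, 195, 7.48 and 79.9 CPM, Cd4 at 6.46, 38.9, 21.2, 79.4, 7.45 and 21.4 CPM and regulatory T cell markers at 13.9, 57.2, 37.8, 86.7, 20.1 and 44.0 CPM. B cell markers were at 15.0, 7.91, 17.3, 29.4, 14.0 and 14.5 CPM and lymph node markers at 53.5, 166, 178, 347, 19.5 and 61.0 CPM. Dendritic cell markers were at 105, 431, 155, 453, 103 and 187 CPM, macrophage markers at 1465, 5294, 2115, 3833, 1469 and 2542 CPM, monocyte markers at 204, 428, 185, 331, 308 and 368 CPM, neutrophil markers at 10.3, 124, 21.7, 51.7, 22.2 and 90.1 CPM and NK cell markers at 15.4, 29.7, 25.1, 31.3, 14.8 and 23.5 CPM. Mesothelial and tumor cell markers were at 312, 97.1, 119.9, 69.6, 286 and 148 CPM, skeletal muscle markers at 137, 42.6, 1082, 720.03, 142 and 278 CPM and fibroblast markers at 3795, 3235, 7058, 5356, 3739 and 3371 CPM.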

Additional observations from a re-analysis of the deposited data

Results flagged for a closer look

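Single tumors that lay far from the rest of their group, by the gap to the nearest tumor relative to the group's range, were found in 12 of 102 groups tested (60 groups of CPM values and 42 of log2 differences). For normally distributed values chance alone gives such a gap in about 5% of groups. The CPM values were taken without logs, and the rate for them was not tested. Groups of the same tumors are also not independent. Tumor 3 of the 5-FU group was above the others for Cd40lg (1.07 CPM, next 0.358), Tnfsf4 (4.67 CPM, next 1.61) and Cd70 (0.490 CPM, next 0.122), and below them for Ctla4 minus Cd28 (-1.17, next -0.08). This tumor also had the highest T cell, B cell and lymph node marker sums of its group, whose part in these values was not tested.

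Tumor 1 of the cisplatin+ICB group was above the others for Cd80 (56.5 CPM, next 29.1), Tnfsf9 (15.4 CPM, next 9.54) and Ctla4 minus Cd28 (3.31, next -0.31), and below them for Cd40lg minus Cd40 (-8.84, next -6.30, with no Cd40lg count in tumor 1). Its mesothelial and tumor cell marker sum was the highest of all tumors, and its TMM factor, 0.685, was the lowest. The part of either in those values was not tested. Tumor 3 of the same group was below the others for Cd86 (13.3 CPM, next 37.1). PBS tumor 2 was above the other PBS tumors for Cd86 (19.99 CPM, next 7.58) and Tnfrsf9 minus Tnfsf9 (1.96, next 0.99). Tumor 5 of the 5-FU group was above the others for Tnfrsf4 minus Tnfsf4 (2.87, next 2.29).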

How the results depend on the processing

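Over tumors left out in turn, 7 genes were called after ICB and 8 to 9 after 5-FU+ICB compared to PBS. The count of 0 held under all settings for cisplatin compared to PBS, for both combinations compared to ICB and for both interactions. After 5-FU 3 became 5 by DESeq2, 0 with all 6 groups in 1 fit (4.45% of all genes called) and 0 to 4 over tumors left out (0 without PBS tumor 1 or 5-FU tumor 3, 1 without PBS tumor 2). After cisplatin+ICB 4 became 7 by DESeq2 (10.1% of all genes), 0 with only the 2 groups (0% of all genes) and 0 to 7 over tumors left out (0 without PBS tumor 1, 3 or 4, 1 without tumor 2, 4 or 5 of the treated group, 7 without its tumor 1). By DESeq2 the counts were 1 for 5-FU+ICB compared to 5-FU, 5 for cisplatin+ICB compared to cisplatin, 2 for 5-FU compared to cisplatin and 1 for 5-FU+ICB compared to cisplatin+ICB, where edgeR called 0. The ranges over tumors left out were 0 to 7, 0 to 6, 0 and 0 to 3 in that order (7 and 3 without 5-FU+ICB tumor 2, 4 without 5-FU tumor 3, 6 and 2 without cisplatin+ICB tumor 1 and tumor 3, 1 without cisplatin+ICB tumor 5). Tests relative to the CD3 genes gave 0 to 5 results over tumors left out, and those of Ptprc and of pairs gave 0 throughout. The cause of these changes was not tested.

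Replicate numbers did not pair the tumors: in no comparison did every same-numbered pair correlate above 0.1 (from -0.78 to 0.75 over 11 comparisons). With the replicate number as a block 1 gene was called after 5-FU (beside 18.6% of all genes) and 1 after cisplatin+ICB (0.533%), and Icosl in 5-FU+ICB compared to ICB changed from 0.05 to -0.026.

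Small uncalled log2 fold changes between 2 groups reversed. Interaction estimates are not listed here, and those of Cd70 and Tnfsf4 with 5-FU also changed sign without 5-FU tumor 3. Tnfsf9 after cisplatin+ICB compared to PBS (-0.00) became 0.060 by DESeq2, 0.081 with its size factors, 0.031 with no filter, 0.14 with at least 10 counts, 0.0048 with the replicate block and 0.085 with only the 2 groups, and compared to cisplatin (-0.08) it became 0.0012 with DESeq2's size factors and 0.025 with at least 10 counts. Over tumors left out, ranges that crossed 0 were -0.24 to 0.060 for Cd80 after ICB, -0.11 to 0.32 for Cd86 and -0.14 to 0.27 for Icosl in 5-FU+ICB compared to ICB, -0.36 to 0.35 for Cd27, -0.19 to 0.73 for Cd86, -0.35 to 0.50 for Cd40, -0.051 to 0.20 for Tnfsf9 and -0.14 to 0.69 for Cd70 after cisplatin, and -0.16 to 0.11 for Tnfsf9 after cisplatin+ICB. They were -0.018 to 0.32 for Tnfsf4 in cisplatin+ICB compared to ICB, -0.058 to 0.36 for Cd80 and -0.24 to 0.10 for Tnfsf9 compared to cisplatin, -0.43 to 0.43 for Tnfsf4 and -0.23 to 1.01 for Cd70 in 5-FU compared to cisplatin, and -0.30 to 0.053 for Cd80 between the combinations. The fall of Tnfsf9 after 5-FU+ICB lost its call under 5 of the settings other than leaving out a tumor (-0.52 to -0.58) and without PBS tumor 1 or 2 or 5-FU+ICB tumor 3 or 5 (-0.47 to -0.62). Depth limited Cd40lg and Cd70, whose PBS tumors held 0 to 4 counts each.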
